A study of Mus musculus with 6 samples.

Results

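The metalloproteinase system was described in read counts per gene from the mouse uterine luminal layer and from blastocysts on the evening before attachment. Its members were taken by symbol: every row of the gene tables named *Mmp*, *Adam*, *Adamts*, *Adamtsl* or *Timp* followed by a number. The rule took 84 of 23420 genes and used no measured value. They comprise 23 *Mmp*, 33 *Adam*, 19 *Adamts*, 5 *Adamtsl* and 4 *Timp* genes, and 83 of the 84 are protein coding in the GENCODE M21 annotation.

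Matrix metalloproteinases (Mmps) are zinc enzymes that cut collagens, laminins and other proteins of the extracellular matrix. They are secreted or tethered to the membrane, and are made as inactive precursors. Adams are membrane proteins, several of which release growth factors and receptors from the cell surface, whereas Adamts enzymes are secreted and cut proteoglycans, procollagens and other matrix proteins. Timps are small secreted proteins that block the active site of these enzymes. In the uterus the balance of proteases and Timps is known for the remodelling of the matrix around implanting embryos.

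In each tissue there were 3 groups of 1 library each, all collected at 8 pm on day 4 of pregnancy. For the luminal layer, control females were Lif-floxed/floxed and received PBS. Females of the *Lif* eKO group were Lif-floxed/floxed Ltf-Cre/+ and received PBS, and those of the third group had the genotype of the eKO group and were injected with 20 µg of recombinant Lif (rLif) each at 10 am and again at 6 pm, with dissection 2 h after the second dose. All females thus carried the floxed allele of *Lif* (leukemia inhibitory factor), and Cre under the *Ltf* promoter acts in the uterine epithelium, so the stroma keeps the gene. Blastocysts were flushed from uteri of the same 3 groups, and all blastocyst libraries are labelled Lif-floxed/+. The luminal layer was cut by laser and RNA of several animals was pooled, as were the blastocysts of each group. With 1 pooled library per group there was no replicate check, and every comparison below is between 2 libraries rather than 2 conditions.

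Total counts ranged from 18996158 to 28460465 per library. *Lif* itself had 0 counts in the luminal control library, 28 in the eKO library and 0 after rLif. The only luminal reads of *Lif* thus lay in the library labelled eKO. The study places *Lif* in the uterine glands before attachment, and the stroma keeps the gene in eKO. The labels could therefore not be checked by *Lif*, and luminal libraries are called by their labels throughout. The *Lif* counts sum over the whole gene and do not separate the floxed exons. In blastocysts *Lif* had 1447, 1736 and 1250 counts. All 6 epithelial markers were above 0 in every luminal library, and *Pou5f1* and *Nanog*, of the inner cell mass, were at 0 there. The luminal libraries also held all 10 listed stromal markers, with summed levels of 910, 1348 and 909 CPM (counts scaled to a common library size) for the control, eKO and rLif-treated libraries. In blastocysts all 7 trophectoderm markers were above 0, with 6922 to 7390 CPM in sum. In the luminal libraries 6, 7 and 6 of them were above 0, with 2373, 3123 and 1955 CPM. *Krt8* and *Krt18* are on both this list and the epithelial one.

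In the luminal layer, 55 of the 84 members had at least 10 counts over the 3 libraries and were analysed. A further 10 had 1 to 9 counts, and 19 were at 0 in every library, 14 of them Adams that are mostly known from the male germ line. Counts are given in the order control, eKO and eKO with rLif. A member was called when its log2 ratio and the whole of the 95% Clopper-Pearson interval exceeded 1 in size. Intervals cover counting error only, with reads taken as independent. Of the 55, 13 were called in eKO against control (23.6%), 8 higher and 5 lower in eKO, where 17.2% of all genes analysed were called, 8.08% higher and 9.15% lower. For eKO with rLif against eKO 12 were called (21.8%, against 15.6% of all genes), 5 higher (7.88% of all genes) and 7 lower (7.77%). For eKO with rLif against control 7 were called (12.7%, against 9.16%), 2 higher (4.12% of all genes) and 5 lower (5.04%). The members' shares lay above the background in all 3 comparisons by the calls of a few genes. Of the called members, *Adamts13*, *Adamtsl2* and *Mmp25* met the count minimum only through the eKO library, and *Mmp21* only through the control library. Their calls thus rest partly on the filter. The median log2 ratio of the members was -0.03, -0.37 and -0.33 in the 3 comparisons, beside 0.01, -0.01 and 0.01 for all genes. Calls of members went in either direction, and 35 of the 55 were called in no comparison.

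The level of the system as a whole was dominated by few genes. Summed over all members, the level was 386 RPKM (CPM per kilobase of exon) in the library labelled control, 211 in the eKO library and 299.7 in the rLif-treated one. *Mmp7* alone gave 38.4%, 1.02% and 2.15% of these sums, and *Timp1* 7.05%, 2.38% and 30.4%. The highest members in control were *Mmp7*, *Mmp2*, *Mmp14*, *Timp1*, *Mmp23*, *Adam17*, *Adam10* and *Timp3*.

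**Figure D1:**
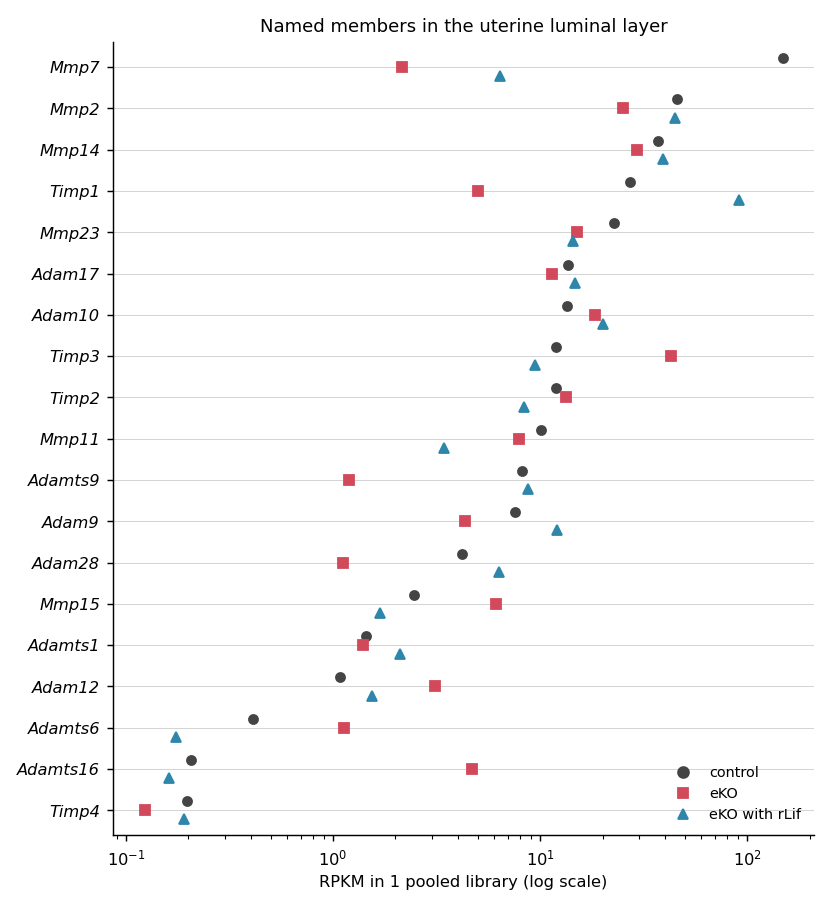
Level of the named members in the uterine luminal layer, in RPKM on a log scale, with 1 symbol per pooled library (circle, control; square, eKO; triangle, eKO with rLif), in order of the level in control. *Mmp7* lies at 148 RPKM in control and 2.14 in eKO, *Timp3* and *Adamts16* lie highest in eKO, and *Mmp14*, *Adam10* and *Adam17* vary little.

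*Mmp7* (chromosome 9, 7692111 to 7699416, plus strand), the matrilysin of glandular and luminal epithelia, showed the widest difference among the Mmps. It had 3290, 54 and 147 counts, or 148, 2.14 and 6.43 RPKM. The library labelled control thus held far more *Mmp7* than either of the other two. The log2 ratio of eKO to control was -6.11 (interval -6.53 to -5.73). With rLif it was higher than in eKO (log2 ratio 1.59, interval 1.13 to 2.06) and still lower than in control (-4.53, interval -4.78 to -4.29). As these are bulk samples, fewer cells of a type and less RNA per cell cannot be told apart, here or for any other gene below. The 3 gland markers in the tables (*Foxa2*, *Prss28* and *Prss29*, of 5 listed) summed to 7.17, 4.32 and 17.9 CPM, with 3, 2 and 3 of them above 0. Their part in the results for *Mmp7* and *Timp1* was not tested. The 250 bases before the RefSeq start of *Mmp7* (GRCm38.p6, chr9:7691840-7692089, plus strand) are shown since this member differed most. Capitals mark a match to the AP-1 motif TGANTCA, which lies 63 bases before the start:
Mmp7: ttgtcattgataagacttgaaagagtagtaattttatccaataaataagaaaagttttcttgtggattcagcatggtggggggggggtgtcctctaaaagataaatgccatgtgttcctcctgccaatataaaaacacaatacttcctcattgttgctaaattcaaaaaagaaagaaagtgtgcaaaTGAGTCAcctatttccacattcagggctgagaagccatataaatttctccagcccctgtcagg

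Of the 16 secreted Mmps, 8 were analysed. *Mmp2*, the gelatinase A of stromal cells, had 3531, 2188 and 3564 counts, or 46 RPKM in control, 25.1 in eKO and 45 with rLif. It was second to *Mmp7* in control and above it in the other libraries. It was lower in eKO without a call (log2 ratio -0.88, interval -0.95 to -0.80). With rLif it was close to control (-0.03, interval -0.10 to 0.04). *Mmp11*, the stromelysin 3 of tissue remodelling, had 574, 509 and 201 counts, so that it was low only in the library labelled eKO with rLif (-1.56 against control, interval -1.80 to -1.32). At low counts, *Mmp28* with 7, 45 and 19 was called higher in eKO, and *Mmp21* with 25, 5 and 1 was called lower in both against control. *Mmp9*, the gelatinase B of leukocytes and trophoblast, was below the count minimum with 3, 0 and 2 counts. The stromelysin *Mmp3* had 7, 4 and 0 counts, and the collagenases *Mmp8*, *Mmp1a* and *Mmp1b* were at 0 throughout, as were *Mmp20* and *Mmp27*. Summed over the secreted Mmps the level was 207, 37.4 and 56.3 RPKM.

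Among the 7 membrane-bound Mmps, 6 were analysed. *Mmp14*, the membrane enzyme that activates the precursor of Mmp2, had 2437, 2178 and 2637 counts and differed little, eKO to control giving a log2 ratio of -0.35 (interval -0.43 to -0.26). *Mmp15*, its close relative, had 266, 749 and 187 counts. It was higher in eKO than in control (1.31, interval 1.10 to 1.51) and lower with rLif than in eKO (-1.86, interval -2.10 to -1.63). *Mmp23* had 821, 616 and 538 counts and no call. *Mmp25*, a membrane-anchored Mmp of leukocytes, had 8, 11 and 0 counts, at least 3.32-fold lower with rLif than in eKO. Only *Mmp15* thus had a call at more than 11 counts, and the summed level of the group varied between 51.2 and 63.1 RPKM. The 250 bases before the start of *Mmp15* (GRCm38.p6, chr8:95352046-95352295, plus strand) are printed as those of a member with the order of levels opposite to *Adam28* and *Adamts9* below, and hold no capitals since neither motif searched was found:
Mmp15: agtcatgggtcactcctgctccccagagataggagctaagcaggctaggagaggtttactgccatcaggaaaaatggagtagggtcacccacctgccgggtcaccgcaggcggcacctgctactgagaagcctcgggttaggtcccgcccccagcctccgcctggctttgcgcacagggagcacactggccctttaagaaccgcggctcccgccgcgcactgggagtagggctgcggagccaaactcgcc

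The Timps differed in composition between the libraries. *Timp1* (chromosome X, 20870166 to 20874737, plus strand), an inhibitor of most soluble Mmps, had 612, 128 and 2112 counts, or 27.2, 5.01 and 91.1 RPKM. It was lowest in eKO (-2.44 against control, interval -2.73 to -2.17) and highest with rLif, above eKO by 4.19 (interval 3.93 to 4.45) and above control by 1.74 (interval 1.61 to 1.87). *Timp3* (chromosome 10, 86300412 to 86349505, plus strand), which binds to the matrix and also blocks Adams and Adamts enzymes, lay in the opposite order. It had 1411, 5749 and 1148 counts, or 11.9, 42.8 and 9.42 RPKM. In log2 terms it was higher by 1.84 in eKO than in control (interval 1.76 to 1.93) and differed by -2.18 between eKO with rLif and eKO (interval -2.28 to -2.09). *Timp1* accordingly gave 53.2%, 8.19% and 83.5% of the summed Timp level, and *Timp3* 23.3%, 69.9% and 8.63%. *Timp2*, which takes part in the activation of Mmp2 on the cell surface, had 1084, 1382 and 789 counts and no call, and *Timp4* had 7, 5 and 7. The sum over the 4 Timps was 51.2, 61.2 and 109 RPKM. The sum of the stromal markers given above was also highest in eKO, by less than *Timp3*, though *Hoxa11* (66.9, 58.8 and 40.8 CPM) and *Hand2* (15.8, 14.3 and 21.8 CPM) were not. The 6 epithelial markers summed to 4113, 6114 and 4026 CPM, likewise highest in eKO, though *Epcam*, *Cdh1* and *Krt18* were not. The part of either list in the level of *Timp3* was not tested. The 250 bases before each start are given because the 2 inhibitors lay in opposite order (GRCm38.p6, chrX:20869916-20870165 and chr10:86300162-86300411, both plus strand), again with no motif match to mark:
Timp1: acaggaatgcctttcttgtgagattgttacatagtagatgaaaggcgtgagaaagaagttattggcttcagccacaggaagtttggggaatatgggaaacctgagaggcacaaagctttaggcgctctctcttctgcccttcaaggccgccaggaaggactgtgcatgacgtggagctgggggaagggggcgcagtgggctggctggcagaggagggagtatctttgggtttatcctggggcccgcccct
Timp3: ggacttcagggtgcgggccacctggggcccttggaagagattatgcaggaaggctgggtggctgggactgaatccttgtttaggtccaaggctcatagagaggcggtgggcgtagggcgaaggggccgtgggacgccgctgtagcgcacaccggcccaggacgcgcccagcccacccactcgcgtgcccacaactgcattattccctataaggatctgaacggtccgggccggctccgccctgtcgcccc

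Among the 9 Adams with protease activity in somatic tissues, all were analysed. The main sheddases had no call: *Adam10* had 1549, 2421 and 2397 counts, where eKO exceeded control by 0.46 in log2 (interval 0.37 to 0.55). *Adam17*, which releases ligands of the EGF receptor and tumour necrosis factor, had 1518, 1439 and 1695 counts (-0.26, interval -0.37 to -0.16). Its exons overlap those of *Iah1*, so its counts are uncertain. *Adam28*, an Adam known from lymphocytes and epithelia, had 411, 124 and 636 counts, lower in eKO than in control (-1.91, interval -2.22 to -1.62) and higher with rLif than in eKO (2.50, interval 2.22 to 2.79). *Adam12*, a protease of mesenchymal cells, had 210, 688 and 307 counts and was higher in eKO (1.53, interval 1.30 to 1.76). With rLif its ratio to eKO of -1.02 had an interval of -1.22 to -0.83, which crossed the limit. *Adam9* had 771, 503 and 1261 counts and was called only with rLif against eKO (1.47, interval 1.32 to 1.62). *Adam8*, an Adam of leukocytes, had 67, 39 and 9 counts and was called lower with rLif against control. The 5 leukocyte markers in the tables, of 6 listed, summed to 801, 665 and 641 CPM, most of it *Lyz2* (745, 612 and 549 CPM). *Ptprc* with 8.91, 14 and 15 CPM, *Cd68* with 37.2, 29.6 and 62 and *Csf1r* with 9.23, 8.5 and 14.6 were highest with rLif, where *Adam8* was lowest. *Lyz2* and *Cd3e* (1.11, 0.94 and 0.23 CPM) were lowest there. The 6 neutrophil markers in the tables, of 7 listed, summed to 7.25, 3.41 and 2.38 CPM, in the same order as *Adam8*. The part of either list in *Adam8* was not tested. Of the neural Adams without protease activity, *Adam11* and *Adam22* were analysed without a call. Of the 21 others, mostly of the male germ line, 3 were analysed, without a call.

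In the Adamts family all 19 members were analysed, and 2 members lay in opposite order beneath a nearly level sum of 16.4, 15.6 and 17.5 RPKM. *Adamts9* (chromosome 6, 92772699 to 92901441, minus strand), which cuts the proteoglycan versican, had 1240, 207 and 1370 counts. It was low in eKO alone, with a log2 ratio of -2.77 against control (interval -2.99 to -2.56), 2.87 with rLif against eKO (interval 2.66 to 3.09) and 0.10 with rLif against control (interval -0.01 to 0.21). *Adamts16* (chromosome 13, 70727808 to 70841810, minus strand), a protease known from kidney and gonads, had 26, 671 and 21 counts. It was high in eKO alone, by 4.50 over control (interval 3.94 to 5.13), and differed by -4.86 between eKO with rLif and eKO (interval -5.56 to -4.23). *Adamts9* gave 49.7%, 7.65% and 49.8% of the summed Adamts level, and *Adamts16* 1.26%, 30.1% and 0.926%. *Adamts6* had 50, 157 and 22 counts and was called lower with rLif against eKO (-2.69, interval -3.41 to -2.04), while its ratio of 1.46 for eKO against control had an interval that began at 1.00.

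The other Adamts calls rested on few reads. *Adamts13*, the protease of von Willebrand factor, had 0, 25 and 3 counts, and eKO exceeded control at least 7.33-fold. *Adamts8* had 4, 37 and 29 counts and was called higher in both eKO libraries than in control. *Adamts17* with 77, 31 and 20 counts and *Adamts18* with 11, 22 and 2 were called lower in 1 comparison each, for *Adamts17* against control and for *Adamts18* against eKO. *Adamts1*, the progesterone-regulated protease of ovulation, had 177, 195 and 267 counts and no call. The procollagen proteinases *Adamts2*, *Adamts3* and *Adamts14* had no call either. Of the 5 Adamts-like genes, which lack the protease domain, *Adamtsl2* had 0, 18 and 8 counts, and eKO exceeded control at least 5.27-fold.

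**Figure D2:**
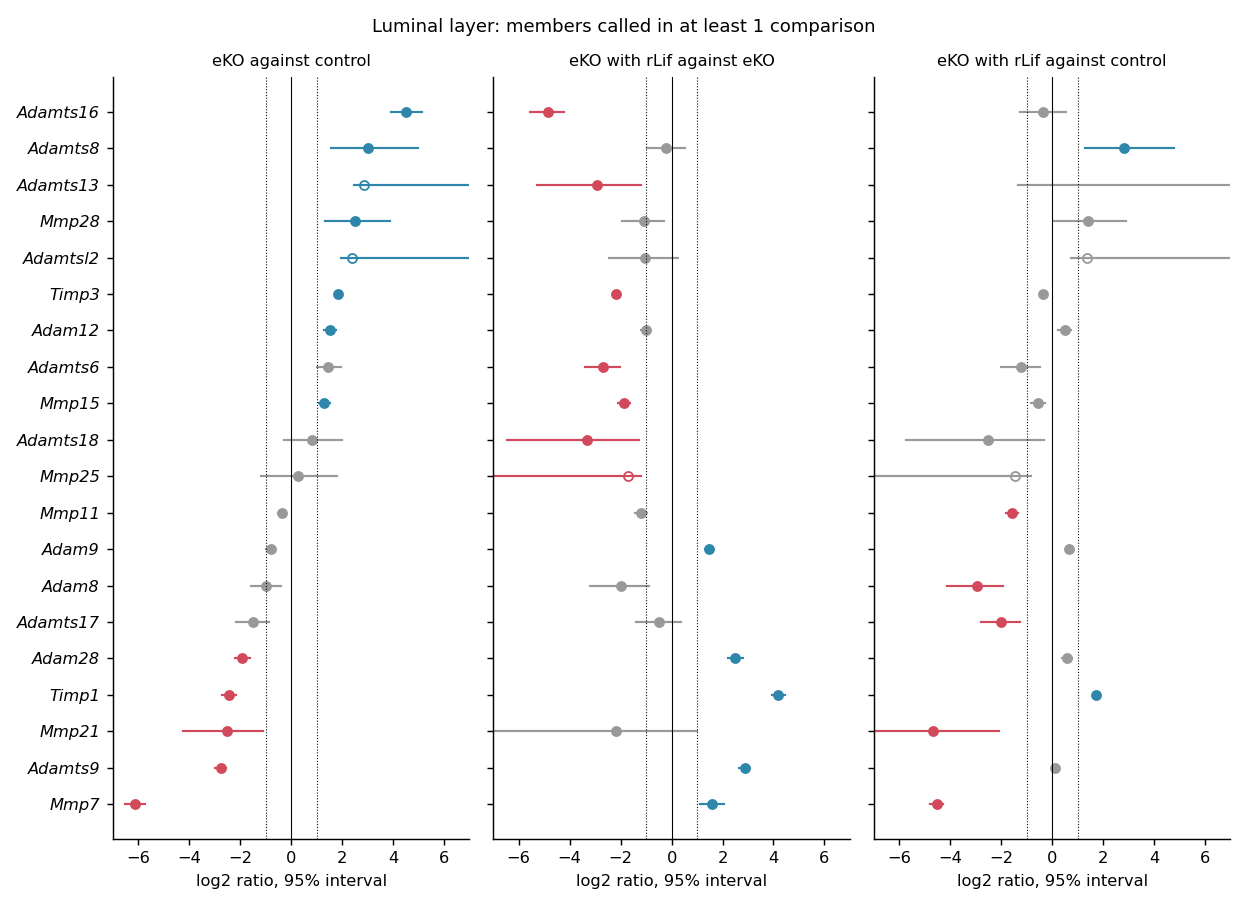
Log2 ratios of the 20 members called in at least 1 of 3 comparisons of luminal libraries, with 95% Clopper-Pearson intervals as lines cut at 7 on either side. Blue marks calls higher and red calls lower in the library named first, grey marks no call, open circles are bounds from a floor of 3 counts, and dotted lines stand at 1 and -1. *Timp3*, *Adamts16*, *Adamts13* and *Mmp15* lie to the right in the left panel and to the left in the middle panel, and *Mmp7*, *Adamts9*, *Timp1* and *Adam28* the other way round.

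Across the 3 luminal comparisons, 8 members were called in opposite directions in eKO against control and in eKO with rLif against eKO, as the plot of luminal ratios shows. *Timp3*, *Adamts16*, *Adamts13* and *Mmp15* were higher in eKO and lower with rLif, and none of these was called with rLif against control. *Adam28*, *Adamts9*, *Timp1* and *Mmp7* were lower in eKO and higher with rLif, and of these *Timp1* ended above and *Mmp7* below control. The 2 comparisons share the eKO library, so a high or low value in that library alone gives this pattern. Among the 20 members called at least once, 10 had 300 or more counts in sum. With that minimum, chosen after the data had been seen, 8, 8 and 3 of 22 members were called in the 3 comparisons (36.4%, 36.4% and 13.6%), beside 14.4%, 12.7% and 5.84% of all genes with as many counts.

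Other genes of the pathway were read from lists of regulators, other metalloproteinases and substrates. These lists, also used in the paragraphs that follow, were chosen with earlier results of these data known. A share of calls above the background is therefore no evidence about a list. Of 23 regulators analysed, 4 were called higher and 8 lower in eKO against control (52.2%, beside 17.2% of all genes). *Pcsk6*, a proprotein convertase that can activate protease precursors, had 1229, 7 and 942 counts. *Tspan33*, a tetraspanin that guides Adam10, had 863, 111 and 522, and *Plaur*, the urokinase receptor, had 316, 57 and 96. *Thbs1*, a matrix protein that binds Mmps, stood on the other side with 365, 2913 and 957. The log2 ratios of eKO to control were -7.64, -3.14, -2.66 and 2.81 for these genes in turn. Both convertase and tetraspanin were higher again with rLif, with ratios to eKO of 7.21 and 2.37.

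Of 13 genes analysed from the list of other metalloproteinases, 4 were called higher and 3 lower in eKO (53.8%, beside 17.2% of all genes). The list also holds *Papln* and *Thsd4*, which lack the protease domain. *Papln*, with 0, 11 and 12 counts, was among those called higher. *Tll1*, a tolloid protease of procollagens, had 2767, 42 and 1774 counts, and *Ece1*, which makes endothelin, had 3690, 1091 and 5256. *Anpep*, the aminopeptidase N of brush borders, had 2932, 9518 and 4411. The meprin *Mep1a* had 0, 15 and 0, and met the count minimum through the eKO library alone. Of 22 matrix substrates, 2 were called higher and 2 lower, and the share of 18.2% was near the background. *Fn1* (fibronectin) had 1720, 4772 and 3386 counts and *Col3a1* 5719, 14377 and 8335, whereas *Fbln1* had 790, 315 and 848 and *Lama1* 73, 0 and 26. *Col3a1* is also among the stromal markers listed.

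Of 20 cell surface proteins known to be shed by Adams, 1 was called higher and 9 lower in eKO against control (50%, beside 17.2% of all genes), with a median log2 ratio of -1.18 beside 0.01 for all genes. *Areg* (amphiregulin), an EGF receptor ligand released by Adam17, had 1067, 236 and 7232 counts. *Ereg* (epiregulin) had 26, 0 and 112, *Il6ra* 268, 40 and 246, and *Met* 1376, 386 and 1087. Each of these 4 was lowest in eKO, while the counts of *Adam10* and *Adam17* differed by less than the limit. With rLif against eKO, 8 of the 20 were called higher and 3 lower (55%, beside 15.6% of all genes).

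In blastocysts, 46 of the 84 members were analysed, 15 had 1 to 9 counts and 23 were at 0 throughout. Adams led the levels. Of the summed 162, 168 and 144 RPKM, the 9 active somatic Adams gave 114, 128 and 104. *Adam19*, a meltrin of developing heart and placenta, was highest with 3564, 4955 and 2349 counts, or 29.3, 39.7 and 18.9 RPKM. Its log2 ratio for eKO with rLif against eKO was -1.07. The interval began at -1.14 and ended at the limit, short of a call. Next in order were *Adam15* (1285, 1329 and 1431 counts), *Adam9* (1649, 1948 and 1725), *Adam10* (1774, 1951 and 1846) and *Adam17* (1433, 1535 and 1487). The log2 ratios of these 4 stayed between -0.17 and 0.20 in the 3 comparisons. *Timp1* had 194, 188 and 168 counts and *Timp3* 374, 259 and 231, neither with a call. *Adamts8* had 238, 108 and 101 counts, also without a call. *Mmp15* with 519, 543 and 519 and *Mmp12*, the macrophage elastase, with 383, 469 and 383 were the leading Mmps. *Mmp12* came to 20.1, 24 and 19.7 CPM, nearly equal in control and with rLif. Leukocyte markers, mostly *Lyz2*, summed to 57.7, 118 and 20 CPM, and all but *Cd3e* were highest in eKO. The same markers summed to 801 CPM in the luminal control library, beside 0.515 CPM of *Mmp12*. Their part in the level of *Mmp12* was not tested.

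**Figure D3:**
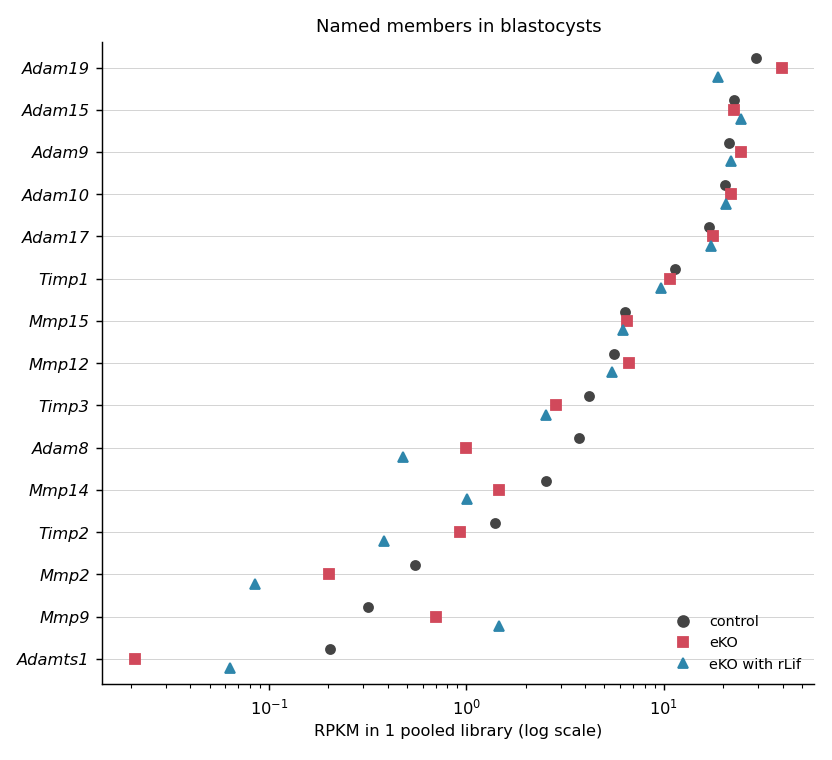
Level of the named members in blastocysts, in RPKM on a log scale, with 1 symbol per pooled library (circle, control; square, eKO; triangle, eKO with rLif), in order of the level in control. The abundant *Adam15*, *Adam9*, *Adam10* and *Adam17* overlap between libraries, while *Adam8*, *Timp2* and *Mmp2* lie lower and *Mmp9* higher in the libraries from eKO uteri.

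Few blastocyst members were called, and nearly all at low counts. For eKO against control 5 of 46 were called (10.9%, against 3.15% of all genes), all lower in eKO, where 1.29% of all genes were called higher and 1.86% lower. Of these 5, *Adamts18*, *Mmp24* and *Adamts1* met the count minimum only through the control library. Their calls thus rest partly on the filter. For eKO with rLif against eKO 2 were called (4.35%, against 3.75%), both lower, where 0.914% of all genes were called higher and 2.83% lower. For eKO with rLif against control 7 were called (15.2%, against 4.94%), 2 higher (0.948% of all genes) and 5 lower (3.99%). Median log2 ratios were -0.24, -0.15 and -0.39, beside 0.00 to -0.01 for all genes. Of the 10 members called at least once, *Adam8* alone reached 100 counts in any library. With a minimum of 300 counts in sum, 11 members were left and *Adam8* was the sole call, so that 1, 0 and 1 were called beside 0.535%, 1.11% and 1.88% of all genes.

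*Adam8* (chromosome 7, 139978941 to 139992488, minus strand), an Adam of leukocytes and trophoblast, had 214, 59 and 28 counts in blastocysts from control, eKO and rLif-treated eKO uteri, or 3.7, 0.995 and 0.475 RPKM. It was lower in eKO than in control by a log2 ratio of -1.89 (interval -2.34 to -1.47), and with rLif it was lower still against control (-2.96, interval -3.59 to -2.39). The rLif-treated library did not lie between the other two. *Adamts9* likewise had 85, 27 and 5 counts and was called lower in all 3 comparisons. *Mmp9* had the opposite order with 19, 43 and 90 counts and was called higher with rLif against control (2.22, interval 1.49 to 3.01). Of the neutrophil markers, *Csf3r* had the same order (176, 217 and 266 CPM) and *Cxcr2* the opposite (12.4, 6.24 and 3.55 CPM), and *Elane* was at 0 in every library. The sum over the list was 191, 228 and 272 CPM, nearly all of it *Csf3r*, and its part in *Mmp9* was not tested.

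*Mmp2*, *Timp2* and *Mmp14*, abundant in the luminal layer, were lower in blastocysts, where they fell from control to eKO to eKO with rLif. *Mmp2* had 32, 12 and 5 counts, *Timp2* 97, 66 and 27, and *Mmp14* 125, 74 and 51. *Adamts1* had 19, 2 and 6 counts, lowest in eKO. *Mmp2* and *Timp2* were called lower with rLif against control (-2.71, interval -4.42 to -1.34, and -1.87, interval -2.55 to -1.25), and *Adamts1* in eKO against control. The 10 stromal markers summed to 159, 161 and 152 CPM, most of it *Pdgfra* (123, 146 and 140 CPM), which primitive endoderm also expresses. Without *Pdgfra*, left out after its values were seen, they summed to 35.7, 15 and 11.8 CPM, with 9, 8 and 9 of 9 above 0. Of these 9, *Vim*, *Lum* and *Hand2* were lowest in eKO and the others lowest with rLif. The part of stromal markers in *Mmp2*, *Timp2*, *Mmp14* and *Adamts9* was not tested. In the control libraries *Mmp2* in blastocysts stood at 1.2% of its luminal CPM, *Mmp14* at 6.79%, *Adamts9* at 9.08% and *Timp2* at 11.8%. Stromal markers analysed in both tissues, without *Pdgfra* (362%), lay between 1.88% (*Hoxa11*) and 14.8% (*Vim*). In the eKO libraries these members came to 0.806%, 4.99%, 19.2% and 7.02%, and these markers lay between 0.489% (*Col1a2*) and 4.34% (*Vim*). There *Mmp14*, *Adamts9* and *Timp2* lay above every one of these markers. With rLif these members came to 0.188%, 2.59%, 0.489% and 4.58%, and these markers lay between 0.126% (*Hoxa11*) and 8.59% (*Vim*). The tissues were counted in separate tables, so tissue and table cannot be told apart.

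The remaining blastocyst calls were sparse. *Adamts18* with 10, 0 and 0 counts was at least 3.42-fold lower in eKO than in control, and *Adamts2* with 6, 18 and 1 was lower with rLif than in eKO. *Adamts18* met the count minimum only through the control library, and *Adamts2* only through the eKO library. *Adam4*, known from the testis, had 2, 16 and 23 counts and was called higher with rLif against control. *Mmp24* had 12, 0 and 6 counts and was lower in eKO by at least 4.1-fold, but its exons overlap those of *BC029722*, so its counts are uncertain.

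**Figure D4:**
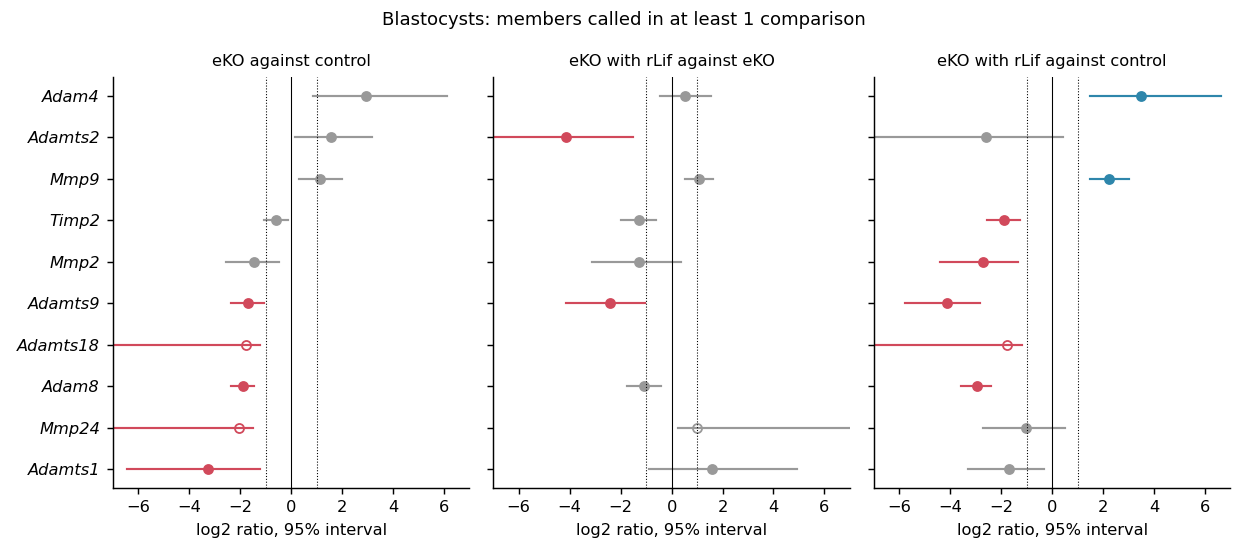
Log2 ratios of the 10 members called in at least 1 of 3 comparisons of blastocyst libraries, drawn as in the plot of luminal ratios. *Adam8* and *Adamts9* lie to the left in all panels, and *Mmp9* and *Adam4* are called higher with rLif against control.

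Between the tissues, 39 members were analysed in both, 16 in the luminal layer alone, 7 in blastocysts alone and 22 in neither. Levels were set side by side in the control libraries without a test. *Mmp7*, *Adam28*, *Adam12* and *Adamts16* had 0 counts in control blastocysts, where *Mmp7* was highest of all members in the luminal layer. *Adam19* stood at 5363% and *Mmp12* at 3901% of the luminal CPM in blastocysts, *Adam15* at 614% and *Adam8* at 423%. *Adamts8* stood at 7879%, which rests on 4 counts in the luminal control library. *Mmp1b* was at 0 in the luminal layer and had 32, 21 and 33 counts in blastocysts. *Adam10* and *Adam17* were among the 8 highest members of either tissue.

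**Figure D5:**
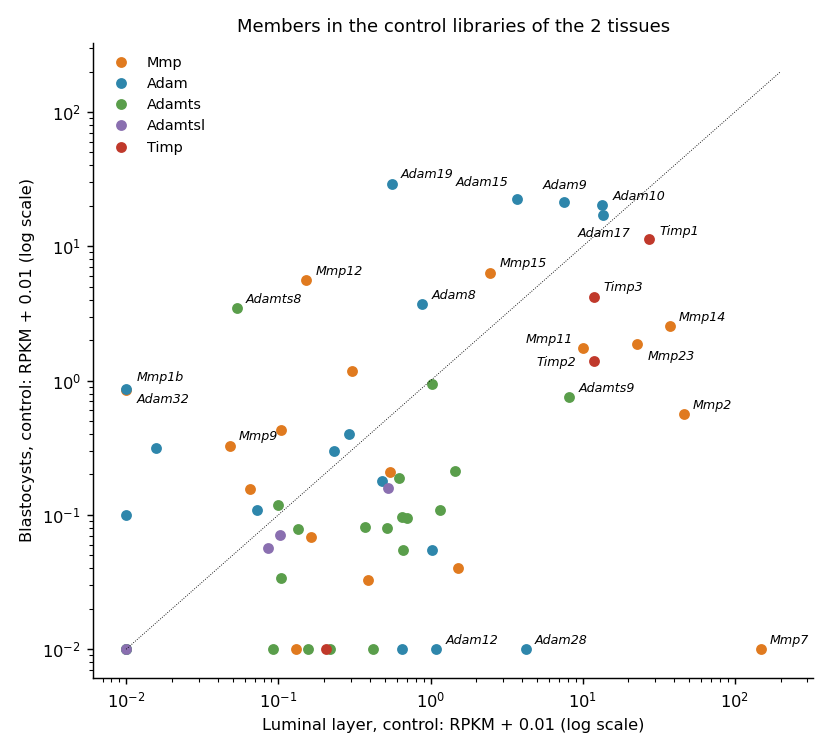
Level of each member analysed in at least 1 tissue in the control library of the luminal layer (horizontal) and of blastocysts (vertical), in RPKM with 0.01 added, on log axes; colours mark the families and the dotted line equal levels. *Mmp7*, *Adam28* and *Adam12* lie at the bottom (0 counts in blastocysts), *Adam19* and *Mmp12* lie well above the line, and *Adam10* and *Adam17* lie close to it.

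Promoter windows of 250 bases were searched on both strands for the STAT motif TTCNNNGAA and the AP-1 motif TGANTCA. Each motif reads alike on both strands, and no window printed above held both. RefSeq held windows for 53 of the 84 members, 58 windows in all. The STAT motif was in 3 of the 58 member windows (5.17%) and in 7.02% of all 32851 windows. The AP-1 motif was in 12 (20.7%) and in 6.75% of all windows. Those 12 belong to *Mmp1a*, *Mmp1b*, *Mmp3*, *Mmp7*, *Mmp10*, *Mmp12*, *Mmp13*, *Mmp20*, *Adam19*, *Adam20*, *Adam25* and *Adam29*. The pattern searched allows any middle base, and both shares are shares of this pattern. *Mmp20*, *Adam20* and *Adam25* matched as TGAATCA, and the others as TGAGTCA or TGACTCA. *Mmp7* was the highest luminal member in control and *Adam19* the highest in blastocysts. *Mmp1a*, *Mmp20*, *Adam20*, *Adam25* and *Adam29* were at 0 in every library, and *Mmp3*, *Mmp10* and *Mmp13* had at most 7 counts in any. Several of these *Mmp* genes are close relatives that lie side by side on chromosome 9. The windows of *Timp1*, *Timp3* and *Mmp15* shown above held neither motif. A match is a run of letters and not a measured binding site. *Adam9*, *Adam12*, *Adam28*, *Adamts6* and *Adamts16* had no entry.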

How the data were processed

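RNA of the uterine luminal layer and of blastocysts was sequenced in 6 libraries, grouped by the sample labels, 1 per group. SMART-seq v4 libraries were made, and the authors aligned reads to GRCm38/mm10 and counted them per gene. The submitters' processing notes name HISAT2, featureCounts and Subread 2.0.0. The deposited values are raw whole-number counts, in a separate table for each tissue, although the methods of the study name RPKM. Settings for strand and for reads with several positions are not given in the sources used here, so reads shared by overlapping genes or near-identical copies cannot be traced. Of the members, 3 had exons overlapping another gene. The deposited tables also give summed exon lengths.

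In the order control, eKO and eKO with rLif, totals came to 23850565, 28460465 and 27809527 counts for the luminal layer and 18996158, 19638852 and 19417359 for blastocysts. A sum of at least 10 counts per tissue was required, which 15694 luminal and 14873 blastocyst genes met. CPM values use TMM library sizes (edgeR version 4.0.16 in R 4.3.3). RPKM is CPM per kilobase of exon. Ratios have exact 95% Clopper-Pearson intervals, which cover counting error only and treat each read as independent. PCR reads without molecular identifiers are not independent molecules, so the intervals can be too narrow even for counting error. A gene was called when the interval lay wholly beyond a log2 ratio of 1. A library at 0 was set to a floor of 3 counts, which gives a bound. No p-value is given, since 1 library per group gives no estimate of spread, and the exact test named below rests on an assumed one. The rule was tested on simulated data.

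Named members were *Timp1* to *Timp4*, *Mmp2*, *Mmp9*, *Mmp14*, *Adam10*, *Adam17* and *Adamts1*, the 8 with the highest control RPKM per tissue, and called members with at least 100 counts in a library, at most 16 per tissue. Of each related list, up to 4 called genes were named. Members with fewer counts and further called or abundant ones were named after their values had been seen. The members and lists were chosen with earlier results of these data known. Promoter windows came from RefSeq (GRCm38.p6) and were printed for *Mmp7*, *Mmp15*, *Timp1* and *Timp3*, whose RefSeq start lay within 50 bases of the deposited one. *Mmp11* also met this limit and was not printed. Alternatives were DESeq2 1.42.0 size factors, library totals, count minimums of 50 and 300, no minimum, a log2 limit of 2, edgeR's exact test with an assumed dispersion of 0.1, and leaving out members with overlapping exons.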

Additional observations from a re-analysis of the deposited data

Results flagged for a closer look

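*Adamts9* was called in opposite directions in the 2 tissues for eKO with rLif against eKO. Its luminal counts were 207 in eKO and 1370 after rLif, which gives a log2 ratio of 2.87 (interval 2.66 to 3.09). In blastocysts it had 27 and 5 counts, a log2 ratio of -2.43 (interval -4.16 to -1.03). The difference between the tissues was not tested, since each value compares 1 pooled library with another. In blastocysts the stromal markers without *Pdgfra* summed to 11.8 CPM with rLif beside 15 in eKO. With *Pdgfra* they summed to 152 beside 161 CPM. *Vim*, *Lum* and *Hand2* were higher with rLif than in eKO, and the other stromal markers lower. The part of these markers was not tested.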

How the results depend on the processing

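The number of members called is given for eKO against control, eKO with rLif against eKO and eKO with rLif against control, in that order, and was 13, 12 and 7 in the luminal layer and 5, 2 and 7 in blastocysts. A log2 limit of 2 left 5, 6 and 2 in the luminal layer and 0, 0 and 2 in blastocysts. edgeR's exact test with an assumed dispersion of 0.1 left 7, 6 and 3, and 0, 0 and 2. A minimum of 50 counts left 2, 1 and 4 in blastocysts. A minimum of 300 counts, chosen after the data had been seen, left 8 in eKO against control and 3 in eKO with rLif against control in the luminal layer, and 1, 0 and 1 in blastocysts, and moved the luminal median for eKO with rLif against eKO from -0.37 to 0.16. DESeq2 size factors, library totals, no count minimum and leaving out members with overlapping exons kept every count within 1.5 times. With library totals the median log2 ratio of all luminal genes was -0.06, -0.12 and -0.16 in the 3 comparisons, beside 0.01, -0.01 and 0.01, and they added *Mmp11*, *Adamts3* and *Adam8* to the members called lower with rLif against eKO, and DESeq2 size factors added *Adamts3*. Besides that median, which changed sign, no named member's ratio that was called changed sign under another scaling. No paired analysis was possible because each group was 1 library. Depth limits members under about 100 counts, and without replicates the spread between pools of animals is unknown.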
